A study of Homo sapiens with 9 samples.

Results

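Interferon-stimulated genes were examined in the human lung adenocarcinoma cell line H2009 through a list of 41 named genes. Of these, 40 were analysed, each with 1 probe set, among 23931 named genes in all; STAT2 was not analysed here. All 9 samples were H2009 clones made for CRISPR activation, in which a Cas9 without endonuclease activity carries the activating domains VP64, p65 and Rta, and a guide RNA brings it to a chosen site. The 3 sgRNA-A samples and the 3 sgRNA-B samples came from clones whose guides were meant to raise the microRNAs of 14q32, and the 3 control samples held the empty guide vector. The control samples are labelled as carrying the same activation system. All were grown with blasticidin and none was otherwise treated. Because a single clone stood for each guide, what a guide did and how its clone differed beforehand cannot be told apart. Replicates are labelled biological but come from that clone, and p-values cover the spread between those samples only.

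Interferons are secreted when a cell senses foreign nucleic acid. Type I interferons act through the receptor subunits IFNAR1 and IFNAR2 and the kinases JAK1 and TYK2, which activate a complex that holds STAT2 and IRF9. That complex binds the interferon-stimulated response element in the promoters of target genes. The products of these genes detect viral RNA, block its translation, degrade it or hold virus particles at membranes, and many carcinoma lines express part of the set without added interferon.

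Expression is given as the authors' log2 values, and a difference of 1 log2 unit is a 2-fold change. A gene is said to have risen or fallen when its adjusted p was below 0.05 in limma, with Benjamini-Hochberg adjustment over all 23931 genes. In bulk samples, more cells with a transcript and more transcript per cell cannot be told apart. Levels of 4.44 or less were treated as silent, the level that 95% of 355 olfactory receptor genes, taken here as unexpressed, did not exceed. By that measure 7 members were silent over the 9 arrays (RSAD2, CMPK2, MX1, MX2, TRIM22, IFI44L and XAF1). The epithelial markers EPCAM (12.83 in control cells), KRT19 (13.03) and the lung lineage factor NKX2-1 (9.44) were well above that level, while NAPSA and SFTPB, products of mature alveolar cells, were not (4.30 and 4.35). Arrays correlated at 0.9970 to 0.9982 within groups and at 0.9958 to 0.9980 between groups.

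With sgRNA-B, 10 of the 40 members rose and 3 fell. IFIT1, IFIT3, OASL, BST2, IFIH1, DDX60, ISG15, HERC5, HERC6 and IFI44 were higher, and OAS1, IFITM1 and IFI27 were lower. With sgRNA-A, 1 member rose (ISG15) and 4 fell (OAS1, IFITM1, IFI6 and IFI27). Across all genes, 3.07% were called with sgRNA-B (1.56% higher and 1.51% lower) and 2.18% with sgRNA-A (0.957% higher and 1.22% lower). Of the members, 32.5% and 12.5% were called. The members were listed with earlier results of these data known, so these shares cannot test for an excess of calls. Silent genes were 10119 of the 23931 genes and 7 of the 40 members, and the part of this in the shares was not tested. With the dimmest 50% of genes removed, 788 genes were called with sgRNA-A and 1032 with sgRNA-B, against 522 and 735 of all 23931. In that fit 12 members kept a sgRNA-B call, and 4 kept and 3 gained a sgRNA-A call. With sgRNA-B, 17 members had all 3 arrays above all control arrays and 4 below, where 9.67% and 10.5% of all genes did so. With sgRNA-A these counts were 8 and 10, against 8.98% and 8.78% of all genes. Differences above 0 numbered 24 with sgRNA-B and 19 with sgRNA-A, against 48.4% and 51.7% of all genes. Median log2 fold changes of the members lay near 0, at -0.021 with sgRNA-A and 0.048 with sgRNA-B, against 0.0036 and -0.0039 for all genes. Their median absolute change was 0.17 and 0.21, against 0.062 and 0.064. Members thus moved in both directions. Both comparisons use the same control arrays.

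**Figure D1:**
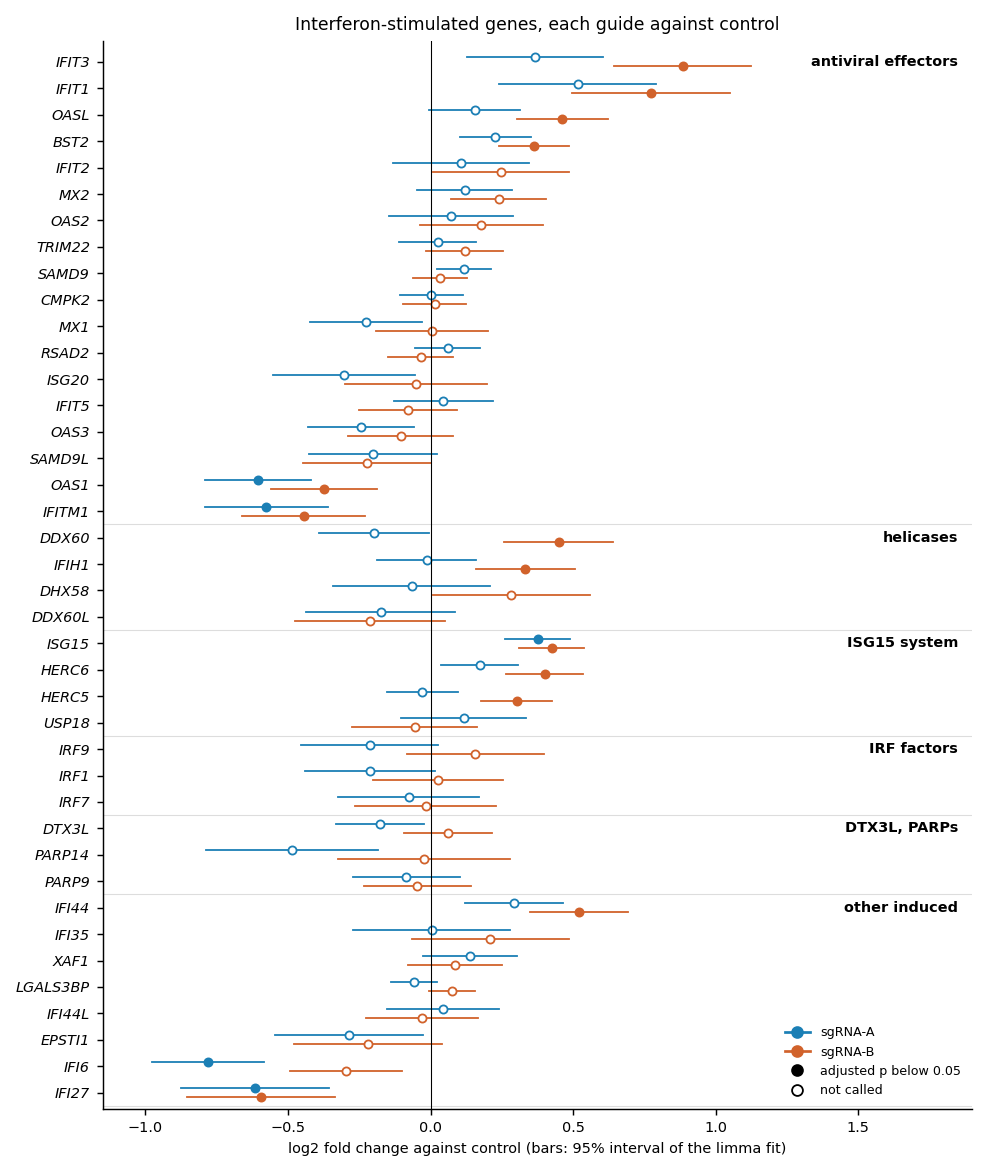
Log2 fold change of the 40 members against control for sgRNA-A (blue) and sgRNA-B (orange), grouped by role; bars are 95% intervals of the limma fit and filled points had an adjusted p below 0.05. With sgRNA-B the filled points run from IFIT3 at 0.88 to IFI27 at -0.59, and with sgRNA-A from ISG15 at 0.38 to IFI6 at -0.78.

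Promoters of members that rose, fell and were not called are shown because response elements stood in all of these classes. Sequences run from 250 bases before to 50 bases after the annotated start, 300 bases in all, from RefSeq on GRCh38.p14, and 33 of the 41 members matched an entry. IFIT2, OAS2, OASL, MX2, TRIM22, DHX58, IRF7 and USP18 had none. Capitals mark the core of the response element, defined as 2 GAAA tetramers with 2 bases of any kind between them and searched on both strands. Overlapping matches run together. ISG15 rose with both guides and IFIT3 with sgRNA-B, IFI6 fell with sgRNA-A, IFI27, IFITM1 and OAS1 fell with both guides, and IFIT5 was called in no comparison.
ISG15 (chr1:1013247-1013546, plus strand): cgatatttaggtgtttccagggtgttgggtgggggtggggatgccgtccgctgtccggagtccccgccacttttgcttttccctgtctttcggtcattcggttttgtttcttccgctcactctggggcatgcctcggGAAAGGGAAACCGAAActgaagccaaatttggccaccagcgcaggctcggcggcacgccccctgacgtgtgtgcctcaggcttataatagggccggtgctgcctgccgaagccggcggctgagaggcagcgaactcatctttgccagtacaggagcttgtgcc
IFIT3 (chr10:89327747-89328046, plus strand): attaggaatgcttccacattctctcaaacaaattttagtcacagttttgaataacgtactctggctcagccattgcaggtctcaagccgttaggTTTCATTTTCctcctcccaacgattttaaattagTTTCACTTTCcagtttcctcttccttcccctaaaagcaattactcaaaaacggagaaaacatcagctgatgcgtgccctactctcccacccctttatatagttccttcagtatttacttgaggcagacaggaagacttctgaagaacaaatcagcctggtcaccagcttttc
IFI6 (chr1:27672143-27672442, minus strand): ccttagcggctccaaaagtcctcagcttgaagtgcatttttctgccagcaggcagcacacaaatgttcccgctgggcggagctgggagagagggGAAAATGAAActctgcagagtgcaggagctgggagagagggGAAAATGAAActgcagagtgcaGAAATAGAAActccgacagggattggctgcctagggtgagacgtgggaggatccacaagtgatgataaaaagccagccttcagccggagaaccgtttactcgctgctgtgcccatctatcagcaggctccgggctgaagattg
IFI27 (chr14:94110486-94110785, plus strand): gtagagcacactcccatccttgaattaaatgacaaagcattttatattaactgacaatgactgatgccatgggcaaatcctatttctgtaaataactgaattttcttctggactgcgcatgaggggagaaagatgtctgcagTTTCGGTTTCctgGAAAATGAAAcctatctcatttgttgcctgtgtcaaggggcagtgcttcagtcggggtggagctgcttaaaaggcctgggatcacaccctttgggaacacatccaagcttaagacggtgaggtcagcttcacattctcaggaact
IFITM1 (chr11:313790-314089, plus strand): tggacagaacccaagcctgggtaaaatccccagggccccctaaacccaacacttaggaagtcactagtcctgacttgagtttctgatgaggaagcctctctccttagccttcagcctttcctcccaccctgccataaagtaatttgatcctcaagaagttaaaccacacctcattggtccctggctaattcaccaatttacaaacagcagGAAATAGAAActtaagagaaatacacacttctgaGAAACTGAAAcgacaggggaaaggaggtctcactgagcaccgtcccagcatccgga
OAS1 (chr12:112906712-112907011, plus strand): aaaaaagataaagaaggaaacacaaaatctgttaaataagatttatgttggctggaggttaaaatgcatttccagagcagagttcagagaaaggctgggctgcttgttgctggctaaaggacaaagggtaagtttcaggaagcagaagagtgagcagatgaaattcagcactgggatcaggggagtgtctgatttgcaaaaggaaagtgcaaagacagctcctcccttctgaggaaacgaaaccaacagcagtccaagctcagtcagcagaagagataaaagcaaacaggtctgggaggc
IFIT5 (chr10:89414318-89414617, plus strand): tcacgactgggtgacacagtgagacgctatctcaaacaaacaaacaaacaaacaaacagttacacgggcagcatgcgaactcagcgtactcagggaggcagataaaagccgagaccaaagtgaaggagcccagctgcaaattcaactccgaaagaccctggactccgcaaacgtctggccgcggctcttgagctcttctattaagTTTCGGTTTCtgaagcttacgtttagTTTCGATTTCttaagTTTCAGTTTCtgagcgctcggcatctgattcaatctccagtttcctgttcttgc
In IFIT5, which did not pass any test, 3 cores lie in the last 45 bases before the start or across it. In IFI6, which fell, 3 cores also stand in the window. OAS1 holds no core of this form.

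The core was found in 22 of the 32 promoters of analysed members (68.8%), against 3.65% of all 27303 promoters of the same length. The members were listed as interferon-stimulated genes, so this share is tied to the choice of list and is not a result of these arrays. Promoters of members that rose held the core in 8 of 9 cases and those of members that fell in 3 of 4, which are few promoters. Of 19 members with no call in any comparison, 11 held it. A longer form, with CT directly after the second tetramer, was found in 7 of 9, 3 of 4 and 5 of 19, and in 0.271% of all promoters. The gamma-activated site core, TTC and GAA with 3 bases of any kind between them, an element of type II interferon responses, stood in 2 of 9, 3 of 4 and 5 of 19 promoters, and in 7.88% of all. Matches of the 2 elements can overlap, as in IFITM1. Members that rose and members that fell thus both held the response element core, 11 of their 13 promoters in all. A match is a description of letters and does not show that a factor binds.

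**Figure D2:**
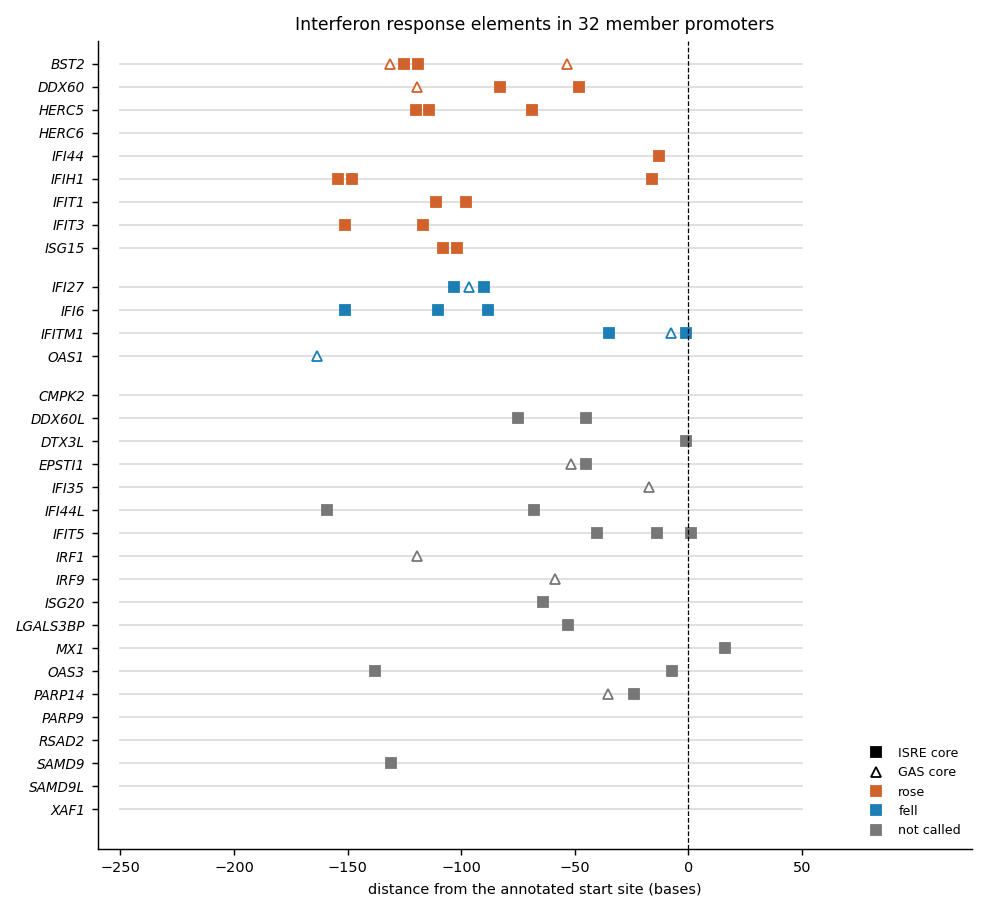
Positions of response element cores (squares) and gamma-activated site cores (triangles) in the promoters of 32 analysed members, in bases from the annotated start site (dashed line), coloured by whether the member rose, fell or was not called. Cores appear in 8 of 9 promoters of members that rose, 3 of 4 of members that fell and 11 of 19 of the rest.

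The IFIT proteins bind foreign RNA and block its translation, and IFIT3 stabilises the complex that IFIT1 forms. IFIT3 measured 5.92, 5.81 and 5.63 in the control arrays (replicates 1 to 3), 6.27, 6.04 and 6.16 with sgRNA-A, and 6.62, 6.76 and 6.63 with sgRNA-B. The 3 groups did not overlap, with controls lowest and sgRNA-B highest. IFIT3 rose by 0.88 with sgRNA-B (SE 0.11; adjusted p = 0.000924, limma), a 1.84-fold change, while its difference with sgRNA-A was 0.37 (SE 0.11; adjusted p = 0.125, limma). IFIT1 measured 5.60, 5.93 and 5.65 in controls, 6.002, 6.32 and 6.40 with sgRNA-A and 6.59, 6.47 and 6.44 with sgRNA-B. Its groups did not overlap either, though control replicate 2 came within 0.1 of the lowest sgRNA-A array. IFIT1 rose by 0.77 with sgRNA-B (SE 0.13; adjusted p = 0.00508, limma) and was 0.52 higher with sgRNA-A without passing the test (SE 0.13; adjusted p = 0.0580, limma). Leaving out sgRNA-A replicate 1 or control replicate 2 brought IFIT1 past the threshold with sgRNA-A, and so did the robust variance or removing dim genes. The other genes of the cluster were not called. IFIT2 had means of 4.54, 4.64 and 4.78 in control, sgRNA-A and sgRNA-B cells, and IFIT5 6.97, 7.02 and 6.90. In the order of protein-coding genes on GRCh38.p14, IFIT2 and IFIT3 are direct neighbours, as are IFIT1 and IFIT5, so members that rose sit beside members that did not.

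The OAS enzymes make oligoadenylates that activate the nuclease RNase L, and OASL is a relative without that activity that aids RNA sensing. OASL and OAS1 moved in opposite directions. OASL measured 7.78, 7.82 and 7.89 in controls, 7.89, 7.93 and 8.13 with sgRNA-A and 8.34, 8.25 and 8.29 with sgRNA-B. All sgRNA-B arrays lay above the rest, while sgRNA-A replicate 1 was less than 0.01 above control replicate 3. OASL rose by 0.46 with sgRNA-B (SE 0.07; adjusted p = 0.00406, limma) and differed by 0.15 with sgRNA-A (SE 0.07; adjusted p = 0.389, limma). OAS1 measured 7.15, 7.13 and 7.10 in controls, 6.52, 6.61 and 6.45 with sgRNA-A and 6.82, 6.66 and 6.78 with sgRNA-B. Every control array was above every guide array, and sgRNA-A was lowest. OAS1 fell by 0.61 with sgRNA-A (SE 0.09; adjusted p = 0.00314, limma) and by 0.37 with sgRNA-B (SE 0.09; adjusted p = 0.0337, limma). The sgRNA-B call of OAS1 was lost when any 1 of the 3 sgRNA-B or 3 control replicates was left out, with log2 fold changes of -0.41 to -0.33 and adjusted p from 0.0691 to 0.132 in limma. OAS3 and OAS2, which follow OAS1 directly on chromosome 12, were not called: OAS3 had means of 7.46, 7.21 and 7.35 in control, sgRNA-A and sgRNA-B cells, and OAS2 4.44, 4.51 and 4.62.

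Movement in both directions was also seen among membrane restriction factors. BST2, or tetherin, which holds budding virus at the cell surface, measured 9.46, 9.52 and 9.45 in controls, 9.72, 9.62 and 9.78 with sgRNA-A and 9.83, 9.94 and 9.75 with sgRNA-B. Controls were lowest without overlap, and the guide groups overlapped each other. BST2 rose by 0.36 with sgRNA-B (SE 0.06; adjusted p = 0.00398, limma) and was 0.23 higher with sgRNA-A (SE 0.06; adjusted p = 0.0641, limma), a value called there once the dimmest 30% of genes were removed. IFITM1, which hinders virus entry at the plasma membrane, measured 8.73, 8.99 and 8.61 in controls, 7.995, 8.26 and 8.35 with sgRNA-A and 8.39, 8.31 and 8.29 with sgRNA-B. Its control arrays were all above the guide arrays, which overlapped each other. IFITM1 fell by 0.58 with sgRNA-A (SE 0.10; adjusted p = 0.00943, limma) and by 0.45 with sgRNA-B (SE 0.10; adjusted p = 0.0293, limma). Its sgRNA-B call was lost without any 1 sgRNA-B replicate, control replicate 1 or control replicate 2 (log2 fold change -0.48 to -0.34, adjusted p 0.0715 to 0.103, limma), and also without a variance trend (0.0798). Its direct neighbours on chromosome 11, IFITM2 and IFITM3, which are no members of the list, went the other way. IFITM2 had means of 10.91, 11.10 and 11.30 in control, sgRNA-A and sgRNA-B cells and rose with both guides (0.19, adjusted p = 0.0386, and 0.39, adjusted p = 0.000353, limma). The sgRNA-A call of IFITM2 was lost in 6 of 9 refits with 1 array left out (each sgRNA-A array, sgRNA-B 3, control 1 and control 3, up to 0.151). It was also lost without a variance trend (adjusted p 0.121, limma). IFITM3 had means of 11.74, 11.91 and 12.05 and rose with sgRNA-B (0.31, adjusted p = 0.00307, limma). The 3 IFITM genes are close in sequence, and probe sequences were not used here, so shared signal between them was not tested.

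The other antiviral effectors did not pass the test. SAMD9, an effector that limits poxvirus growth, had means of 9.42, 9.54 and 9.46 in control, sgRNA-A and sgRNA-B cells, and its neighbour SAMD9L 6.37, 6.17 and 6.15. SAMD9 had its guide arrays above the controls and SAMD9L below them. ISG20, an RNA exonuclease, had means of 4.95, 4.65 and 4.90. The dynamin-like GTPases MX1 (4.44, 4.21 and 4.44) and MX2 (4.22, 4.34 and 4.46) had means over the 9 arrays at or below the silent level. So did the radical enzyme RSAD2, its neighbour CMPK2 and the ubiquitin ligase TRIM22. The sgRNA-B arrays of MX2 all lay above its control arrays, with a mean just above that level.

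IFIH1, also called MDA5, senses long double-stranded RNA, and DDX60 promotes RNA sensing. DDX60 measured 7.02, 7.17 and 7.09 in controls, 6.83, 7.05 and 6.80 with sgRNA-A and 7.47, 7.57 and 7.59 with sgRNA-B. All sgRNA-B arrays exceeded all others, whereas sgRNA-A and controls overlapped. DDX60 rose by 0.45 with sgRNA-B (SE 0.09; adjusted p = 0.0144, limma) and differed by -0.20 with sgRNA-A (SE 0.09; adjusted p = 0.352, limma). The sgRNA-B call was lost without sgRNA-B replicates 2 or 3 or control replicate 1 (adjusted p 0.0608, 0.0654 and 0.0708, limma). IFIH1 measured 7.91, 8.02 and 7.76 in controls, 7.86, 7.82 and 7.98 with sgRNA-A and 8.12, 8.29 and 8.28 with sgRNA-B. Again sgRNA-B stood above and the remaining groups overlapped. IFIH1 rose by 0.33 with sgRNA-B (SE 0.08; adjusted p = 0.0426, limma), the highest adjusted p among the members called with this guide. It was lost in 6 of 9 refits, those that left out sgRNA-A 1, each sgRNA-B array, control 1 or control 3 (log2 fold change 0.26 to 0.39, adjusted p 0.0548 to 0.155, limma), and also without a variance trend (0.0671) or with only the compared groups fitted (0.0581). DHX58, or LGP2, which modulates these sensors, had means of 5.93, 5.86 and 6.21 and was not called. DDX60L, the direct neighbour and paralogue of DDX60, had 5.95, 5.78 and 5.74 and was not called either, so this pair did not move together.

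ISG15 is a ubiquitin-like protein that is joined to other proteins; HERC5 is its main human ligase, HERC6 a related ligase, and USP18 removes it and dampens the interferon receptor. ISG15 measured 8.84, 8.89 and 8.88 in controls, 9.18, 9.26 and 9.30 with sgRNA-A and 9.29, 9.34 and 9.26 with sgRNA-B. Controls were lowest without overlap, and the guide groups overlapped. ISG15 rose by 0.38 with sgRNA-A (SE 0.05; adjusted p = 0.00272, limma) and by 0.42 with sgRNA-B (SE 0.05; adjusted p = 0.000883, limma). HERC6 measured 8.21, 8.23 and 8.12 in controls, 8.30, 8.36 and 8.41 with sgRNA-A and 8.59, 8.65 and 8.52 with sgRNA-B, in 3 separate groups. It rose by 0.40 with sgRNA-B (SE 0.06; adjusted p = 0.00356, limma) and was 0.17 higher with sgRNA-A (adjusted p = 0.226, limma). HERC5, the direct neighbour of HERC6, measured 8.53, 8.51 and 8.60 in controls, 8.54, 8.51 and 8.50 with sgRNA-A and 8.88, 8.90 and 8.76 with sgRNA-B. Only the sgRNA-B arrays of HERC5 stood apart. It rose by 0.30 with sgRNA-B (SE 0.06; adjusted p = 0.0114, limma) and differed by -0.03 with sgRNA-A (95% interval -0.15 to 0.10). The HERC5 call was lost without sgRNA-B replicates 1 or 2 or control replicate 1 (adjusted p 0.0616, 0.0582 and 0.0516, limma). USP18 had means of 9.28, 9.40 and 9.23 in control, sgRNA-A and sgRNA-B cells and was not called.

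Among the remaining members, IFI44 rose and the small membrane proteins IFI6 and IFI27, which belong to 1 family, fell. IFI44, a cytoplasmic protein that restrains some viruses, measured 8.02, 8.17 and 7.85 in controls, 8.25, 8.25 and 8.41 with sgRNA-A and 8.53, 8.57 and 8.50 with sgRNA-B, in 3 separate groups. IFI44 rose by 0.52 with sgRNA-B (SE 0.08; adjusted p = 0.00310, limma) and was 0.29 higher with sgRNA-A (SE 0.08; adjusted p = 0.0857, limma), where it was called without control replicate 2 or with the dimmest 50% of genes removed. Its neighbour IFI44L was silent. IFI6, which guards mitochondria and the endoplasmic reticulum, measured 9.73, 9.83 and 9.53 in controls, 8.77, 8.998 and 8.99 with sgRNA-A and 9.28, 9.57 and 9.36 with sgRNA-B. The sgRNA-A arrays were lowest without overlap, and sgRNA-B replicate 2 reached into the control range. IFI6 fell by 0.78 with sgRNA-A (SE 0.09; adjusted p = 0.000811, limma), a level of 0.582 of control, and differed by -0.30 with sgRNA-B (SE 0.09; adjusted p = 0.110, limma). IFI27 measured 5.07, 4.87 and 4.71 in controls, 4.07, 4.47 and 4.27 with sgRNA-A and 4.24, 4.46 and 4.17 with sgRNA-B. Its guide arrays overlapped each other below the controls, with group means of 4.27 and 4.29 under the silent level, so the size of its fall is limited by background. IFI27 fell by 0.62 with sgRNA-A (SE 0.12; adjusted p = 0.0184, limma) and by 0.59 with sgRNA-B (SE 0.12; adjusted p = 0.0166, limma). Its calls were lost without control replicate 1 (0.0865 with sgRNA-A and 0.0762 with sgRNA-B, adjusted p, limma), without sgRNA-A replicates 1 or 3 (0.0813 and 0.0609) and without sgRNA-B replicates 1 or 3 (0.0740 and 0.0794). IFI27 lies on chromosome 14 with 44 protein-coding genes between it and DLK1, a gene of the imprinted domain that holds the targeted microRNAs.

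**Figure D3:**
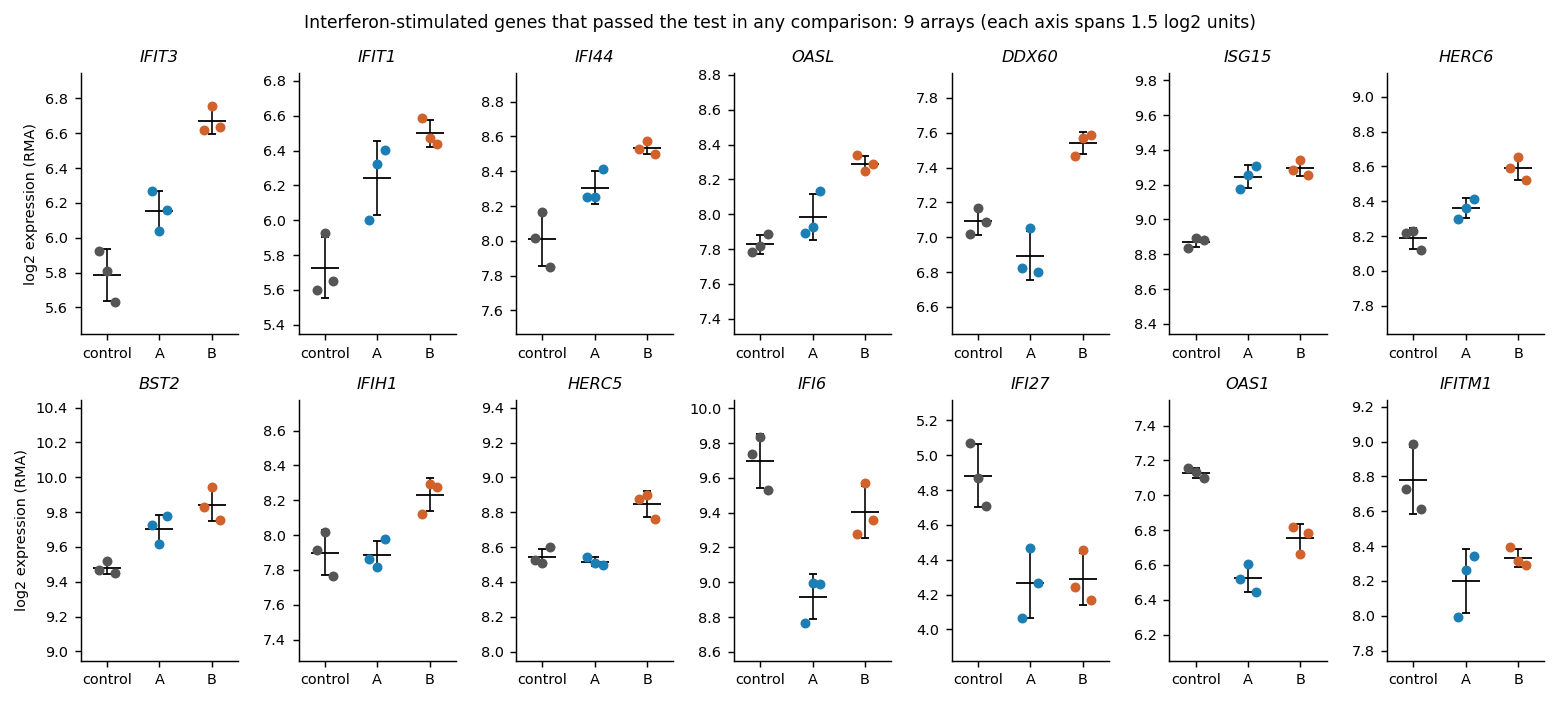
Log2 expression on the 9 arrays for the 14 members called in any comparison; points are arrays, horizontal bars group means and error bars SD of 3 arrays, and each axis spans 1.5 log2 units. The 10 members that rose come first, from IFIT3 (mean 5.79 in control and 6.67 with sgRNA-B), followed by the 4 that fell, from IFI6 (9.70 in control and 8.92 with sgRNA-A).

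Transcription factors of the pathway did not pass the test with either guide. IRF9, the DNA-binding partner in the STAT complex, had means of 6.66, 6.45 and 6.82 in control, sgRNA-A and sgRNA-B cells, IRF1, a factor for type II responses, 7.47, 7.26 and 7.495, and IRF7, which amplifies interferon production, 5.46, 5.38 and 5.44. The ubiquitin ligase DTX3L (9.48, 9.30 and 9.54) and its partner PARP9 (6.94, 6.85 and 6.89), whose genes are direct neighbours, were not called, nor was the ADP-ribosyltransferase PARP14. PARP14 measured 7.42, 7.57 and 7.03 in controls, 6.66, 7.10 and 6.79 with sgRNA-A and 7.44, 7.20 and 7.31 with sgRNA-B. Control replicate 3 fell inside the sgRNA-A range, and the difference of -0.49 with sgRNA-A did not pass (SE 0.14; adjusted p = 0.102, limma), although it did without control replicate 3. The secreted glycoprotein LGALS3BP (11.39, 11.33 and 11.46), the adaptor IFI35 (7.72, 7.72 and 7.93), the interferon-induced EPSTI1 (5.35, 5.07 and 5.13) and the silent XAF1 were not called. Among the 26 members without a call in any comparison, differences ran from -0.49 to 0.14 with sgRNA-A and from -0.22 to 0.28 with sgRNA-B.

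Compared directly, sgRNA-B exceeded sgRNA-A at DDX60 by 0.65 log2 units (SE 0.09; adjusted p = 0.0121, limma), a 1.57-fold difference, and no other member passed. That is 1 of 40 members, against 0.104% of all genes (0.0627% higher and 0.0418% lower). An unadjusted p below 0.05 was found for 18 members, against 10.5% of all genes. The DDX60 call was lost without sgRNA-A replicates 1 or 3 or any 1 sgRNA-B replicate, at differences of 0.60 to 0.68 and adjusted p from 0.0623 to 0.0896 in limma. The next smallest adjusted p values were those of HERC5 (0.33, SE 0.06; adjusted p = 0.0554, limma) and IFI6 (0.48, SE 0.09; adjusted p = 0.0758, limma), followed by IFIT3 (0.52, SE 0.11; adjusted p = 0.123, limma). Of the 40 members, 32 had a higher mean with sgRNA-B than with sgRNA-A, against 47.9% of all genes, and the median difference was 0.14 against -0.0045. For 17 members all sgRNA-B arrays lay above all sgRNA-A arrays, and for 3 below, where 7.34% and 8.56% of all genes did so. These 17 included members that rose against control, such as IFIT3, members that fell, such as OAS1 and IFI6, and members called in no comparison, such as IRF9 and DTX3L. Members share regulators and were measured on the same arrays, so they are not independent observations. For ISG15 and IFI27 the direct difference was 0.05 (95% interval -0.06 to 0.16) and 0.02 (-0.24 to 0.28).

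**Figure D4:**
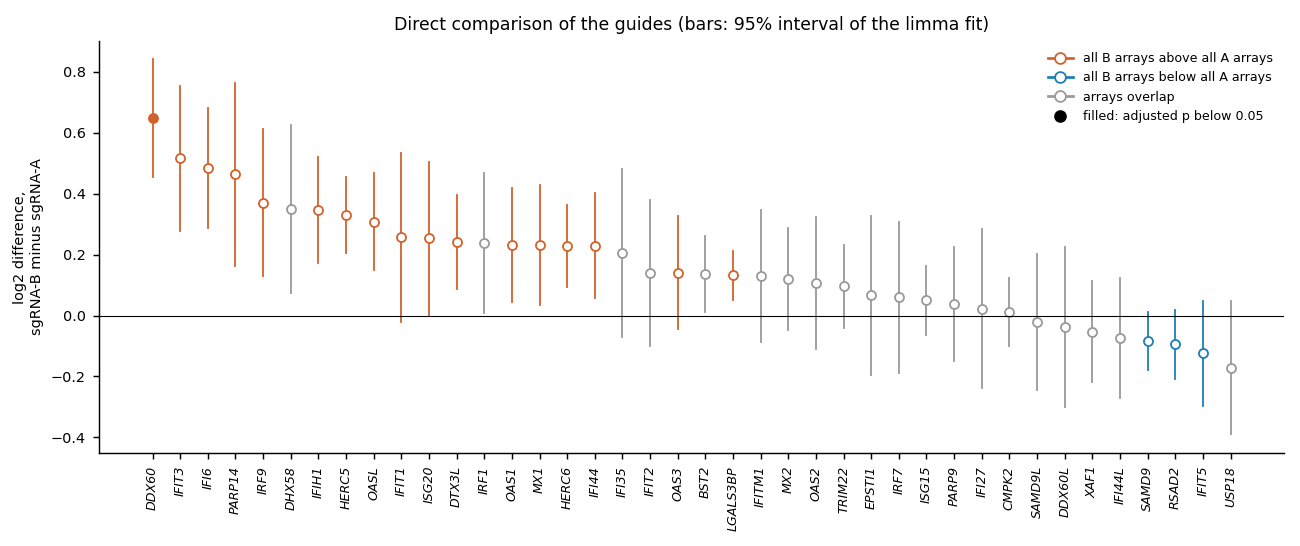
Difference between the guides, sgRNA-B minus sgRNA-A, for the 40 members in order of size; bars are 95% intervals of the limma fit, colours show whether the arrays of the groups overlap, and the filled point passed the test. DDX60 is the filled point at 0.65; 32 members lie above 0 and 17 have all sgRNA-B arrays above all sgRNA-A arrays.

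With the arrays of both guides averaged against control, 7 members rose (IFIT1, IFIT3, OASL, BST2, ISG15, HERC6 and IFI44) and 4 fell (OAS1, IFITM1, IFI6 and IFI27), against 3.57% of all genes called (1.77% higher and 1.80% lower). ISG15 had the smallest adjusted p (0.40; adjusted p = 0.000402, limma). IFI27 fell by 0.61 (adjusted p = 0.00550, limma), a size limited by background as above. OASL was not called without control replicates 1 or 2 (up to 0.0948), nor HERC6 without control replicate 3 (0.0559).

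The rest of the pathway was followed through other lists. Of the interferons themselves, 19 of 21 listed genes were analysed and 15 were silent. Among the silent genes, IFNB1 had means of 3.78, 3.72 and 3.78 and IFNL1 3.86, 3.86 and 4.02 in control, sgRNA-A and sgRNA-B cells. By their means over all arrays, IFNA14, IFNL3, IFNA8 and IFNL2 were above the silent level. IFNA14 had means of 7.36, 7.41 and 7.30 in the same groups, and IFNL3 5.76, 5.83 and 5.86. IFNA8 had 5.08, 4.74 and 4.94, and IFNL2 4.59, 4.95 and 4.44. None of the 19 was called in limma with either guide, with 3 and 2 at an unadjusted p below 0.05. Over all 23931 genes, 3210 with sgRNA-A and 3527 with sgRNA-B had such a p in limma. Receptors and kinases were expressed and not called: among 10 of 11 listed genes analysed, 0 passed in limma with either guide, and 0 and 2 had an unadjusted p below 0.05. IFNAR1 had means of 9.65, 9.68 and 9.65, IFNAR2 6.90, 7.03 and 6.89, JAK1 11.05, 11.09 and 11.02, and JAK2 6.63, 6.51 and 6.34. Of 7 negative regulators, 0 passed in limma with either guide, with 1 and 3 at an unadjusted p below 0.05. SOCS3, which blocks JAK kinases, was called only with both guides averaged (0.24, adjusted p = 0.0444, limma). That call was lost without any 1 array other than sgRNA-B replicate 2 (up to 0.151), and also with robust variances (adjusted p 0.0506, limma).

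Of 18 genes of nucleic acid sensing, 0 were called with sgRNA-A. An unadjusted p below 0.05 (limma) was found there for 3 of them, against 3210 of all 23931 genes. Of the same list, 1 gene rose with sgRNA-B. That is 5.56% of the list with sgRNA-B, against 3.07% of all genes called. The one that rose was SAMHD1, a nucleotide hydrolase that starves viruses of building blocks, from 9.74 to 9.95 (0.21; adjusted p = 0.0472, limma). Its call was lost in 7 of 9 refits with 1 array left out (up to 0.177), and was kept when sgRNA-A 1 or control 2 was the array removed. The call was also lost without a variance trend (adjusted p 0.0993, limma) or with only the compared groups fitted (0.0639). The interferon-inducing factor IRF3 was called only with both guides averaged (0.25, adjusted p = 0.0476, limma) and lost without any 1 array other than control replicate 2 (up to 0.217). That call was also lost with array weights, without a variance trend and with robust variances (adjusted p 0.0512, 0.0561 and 0.0514, limma). The RNA sensor RIGI had means of 9.08, 9.16 and 9.16 and was not called. Of 34 further interferon-induced genes analysed from a list of 36, 2 rose with sgRNA-A and 5 rose with sgRNA-B, where 0.957% and 1.56% of all genes rose. None of the 34 passed the test as lower with either guide in limma, though 14 and 10 had differences below 0. Log2 fold changes in this list ran from -0.56 to 0.28 with sgRNA-A and from -0.48 to 0.40 with sgRNA-B. Beside IFITM2 and IFITM3, the lysosomal reductase IFI30 rose with sgRNA-B (0.40; adjusted p = 0.00830, limma). APOL6, an intracellular apolipoprotein, rose with sgRNA-A (0.28; adjusted p = 0.0457, limma) and sgRNA-B (0.34; adjusted p = 0.0133, limma). The sgRNA-A call of APOL6 was lost without any 1 of the 9 arrays (adjusted p 0.0505 to 0.187, limma). It was also lost with array weights, without a variance trend or with only the compared groups fitted (0.0611, 0.0691 and 0.0907). The sgRNA-B call of APOL6 was lost without sgRNA-B replicate 1 or control replicate 1 (up to 0.0746). The fifth, named after its values were seen, was the antiviral zinc finger gene ZC3HAV1 (0.17, adjusted p = 0.0467, limma), lost without any 1 of the 9 arrays (0.0512 to 0.147). Its call was also lost without a variance trend (adjusted p 0.0988, limma) or with only the compared groups fitted (0.0712). Median log2 fold changes of this list were 0.035 and 0.050, and those of the sensing genes 0.039 and 0.039.

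NF-kB targets, an inflammatory set that infection also induces, gave 1 rise with sgRNA-A and 2 rises and 1 fall with sgRNA-B among 14 of 15 listed genes analysed. Calls over all genes were 2.18% with sgRNA-A, where 1 gene of 14 is 7.14%, and 3.07% with sgRNA-B, where the list share was 21.4%. TNFAIP2 rose with both guides (0.38, adjusted p = 0.00395, and 0.35, adjusted p = 0.00356, limma). With sgRNA-B the adhesion molecule ICAM1 rose by 0.52 (adjusted p = 0.0141, limma) and the inhibitor TNFAIP3 fell by 0.33 (adjusted p = 0.0315, limma). ICAM1 was not called without sgRNA-B replicates 2 or 3 or control replicate 1 (adjusted p up to 0.0712, limma). TNFAIP3 lost its call in 4 of 9 refits, those without sgRNA-B 1, sgRNA-B 2, control 1 and control 3 (up to 0.133). Its call was also lost without a variance trend (adjusted p 0.0600, limma). Of 10 immune cell markers analysed, 8 were silent, among them the pan-leukocyte gene PTPRC and CD3E, CD14, CLEC4C and HLA-DRA. CD79A (6.64, 7.35 and 7.57 in control, sgRNA-A and sgRNA-B cells) and CD68 (8.46, 8.76 and 8.69) rose with both guides, CD68 with sgRNA-B losing its call without any 1 sgRNA-B or control replicate (adjusted p up to 0.0980, limma). CD79A and CD68 are 20.0% of the analysed markers, against 2.18% and 3.07% of all genes called. Median log2 fold changes of the 10 were -0.0042 with sgRNA-A and -0.012 with sgRNA-B, with 5 and 6 markers below 0. The mean level of the list per array was 4.55 to 4.58 in controls, 4.64 to 4.70 with sgRNA-A and 4.67 to 4.70 with sgRNA-B. Its part in the members' changes was not tested. Among 11 epithelial markers, the keratin KRT7 fell with sgRNA-A (11.79 in control and 11.60; adjusted p = 0.0170, limma) and the mucin MUC1 rose with sgRNA-B (9.18 in control and 9.60; adjusted p = 0.00174, limma). The KRT7 call was lost without sgRNA-A replicate 1, control 1 or control 2 (up to 0.0769), and also without a variance trend (adjusted p 0.0873, limma). Mean levels of the epithelial list per array were 9.78 to 9.80 in controls, 9.72 to 9.76 with sgRNA-A and 9.76 to 9.85 with sgRNA-B. Fibroblast and endothelial markers gave no calls, and 8 of 9 were silent. The mean level of that list per array was 4.23 to 4.30 in controls, 4.25 to 4.30 with sgRNA-A and 4.22 to 4.30 with sgRNA-B.

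**Figure D5:**
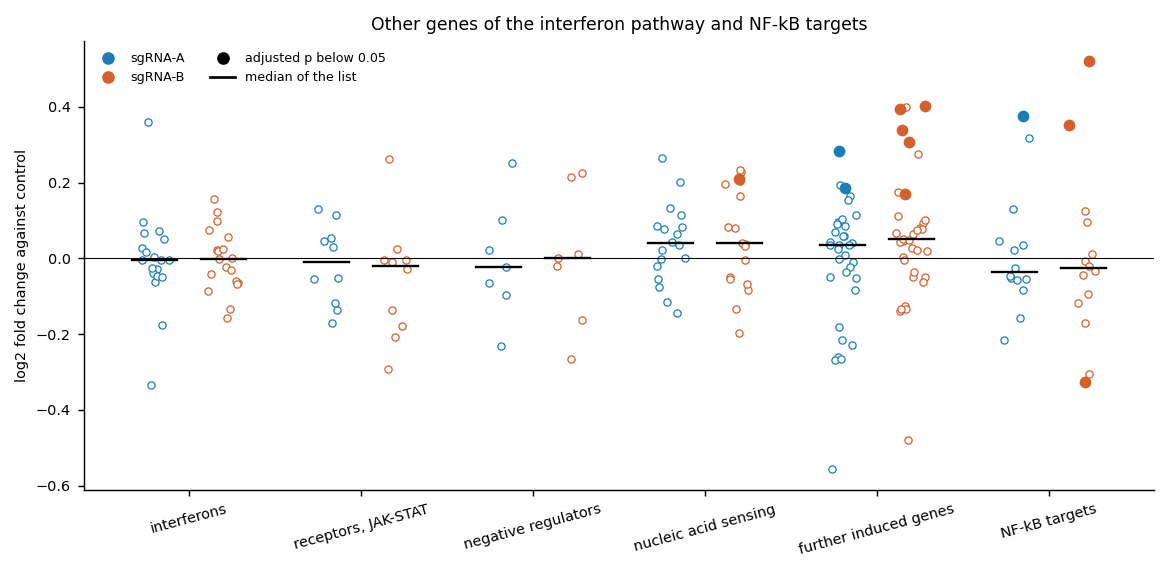
Log2 fold change against control of the genes in 6 further lists, for sgRNA-A (blue) and sgRNA-B (orange); filled points had an adjusted p below 0.05 and black bars are list medians. Filled points are absent from interferons, receptors and negative regulators, and the further interferon-induced genes hold 2 with sgRNA-A and 5 with sgRNA-B, all above 0.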

How the data were processed

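Total RNA of 9 H2009 samples, 3 per group by their titles, was hybridised to Affymetrix arrays after biotin labelling, per the labels' protocols. The values are log2 expression per probe set, deposited by the authors and made with RMA, per the submitters' processing notes; its version, background settings and probe definitions were not among the details used here. It corrects background and makes array distributions equal: the median of each column was 4.91, so shifts common to a whole array are removed. Genes were not centred, judging by the range of 3.38 to 13.82. Of 24733 probe sets, 23934 had 1 gene symbol, 0 had several and 799 had none; 23893 matched RefSeq on GRCh38.p14. For 3 symbols with several probe sets the brightest was kept, leaving 23931 genes. One linear model with a mean per group was fitted in limma 3.58.1 (R 4.3.3; lmFit, eBayes with trend; 6 residual and 7.27 prior degrees of freedom), tested on simulated data. Motifs were searched in Python 3.11.15. Members and lists were chosen with earlier results of these data known. Array values are named for members called in any comparison, and up to 4 called genes per further list. Alternatives were leaving out each array, a replicate block, array weights, other variance models, the compared groups alone, filters on dim genes, other normalizations and probe set rules. The number of arrays limits the precision. Replicate numbers did not pair the samples: deviations of same-numbered arrays correlated at -0.15 to 0.14.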

Additional observations from a re-analysis of the deposited data

Results flagged for a closer look

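The sgRNA-B and sgRNA-A clones differed at DDX60 by a direct test: sgRNA-B exceeded sgRNA-A by 0.65 log2 units (SE 0.09; adjusted p = 0.0121, limma), with all 3 sgRNA-B arrays above all 3 sgRNA-A arrays. Against control, DDX60 differed by 0.45 with sgRNA-B and by -0.20 with sgRNA-A, the latter not called. When sgRNA-A 1, sgRNA-A 3 or any 1 sgRNA-B array was removed, the direct difference of 0.60 to 0.68 was not called (adjusted p 0.0623 to 0.0896, limma). With 3 arrays per group, single arrays were not screened as outliers.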

How the results depend on the processing

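The 30 log2 fold changes of called members were fitted again in 556 refits, and 42 of those refits, in 10 of the 30, did not pass the threshold. No sign changed, but most signs could not. Refits that changed only the variance model, the replicate block, or the genes or groups fitted left a fold change as it was. Where groups do not overlap, leaving out 1 array cannot reverse a sign either. Leaving out each array in turn gave 1 to 3 rises and 3 to 5 falls with sgRNA-A, 7 to 10 rises and 0 to 3 falls with sgRNA-B, and 0 to 2 rises for sgRNA-B over sgRNA-A; among further pathway genes, an analysis chosen after seeing the data, it gave 0 to 1 rises and 0 falls with sgRNA-A and 3 to 6 rises and 0 to 1 falls with sgRNA-B. Member rises with sgRNA-A numbered 1 in the reported fit, 2 with robust variances, 3 with the dimmest 30% and 4 with the dimmest 50% of genes removed. Members higher with sgRNA-B than with sgRNA-A numbered 1, then 2 with the dimmest 30% removed and 3 with the dimmest 50% removed. The samples share only a replicate number. With it as a block, 2 members were higher with sgRNA-B than with sgRNA-A, IFI6 being the one gained. The members OAS1 and IFIH1 lost their sgRNA-B calls with the block. In the other lists SAMHD1, ZC3HAV1 and TNFAIP3 lost their sgRNA-B calls with it. APOL6 lost its sgRNA-A call and IRF3 its call for both guides averaged. Adjusted p of these genes of the other lists ran from 0.0504 to 0.0719 in limma. Calls over all genes went from 522 to 465 with sgRNA-A and from 735 to 684 with sgRNA-B. Further pathway genes that rose with sgRNA-A numbered 2, then 1 with the replicate block, with array weights or with the compared groups alone, and 0 without a variance trend; falls numbered 0, then 1 with the block or with the dimmest 50% removed. Response element cores were held by 22 of 32 promoters, by 15 in the longer form, and 11 held tetramers 1 base apart, a form chosen after seeing the data, including OAS1. The cause of these changes was not tested, except that refits with fewer arrays rest on fewer samples. Over all genes, calls ranged over these refits from 223 to 788 with sgRNA-A (522 reported), from 353 to 1032 with sgRNA-B (735 reported), from 6 to 39 between the guides (25 reported) and from 405 to 1194 for both guides averaged (855 reported). IFI27 is absent from fits without the dimmest 50% of genes.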
